A study of Capra hircus with 24 samples.

Results

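Dermal papilla cells of secondary and of primary hair follicles of cashmere goats (Capra hircus) were compared for how they changed between 2 months. The interaction of follicle type and month is the October minus June difference in secondary cells minus the same difference in primary cells, on log2(deposited value + 1). A positive interaction means that a gene rose more, or fell less, from June to October in secondary than in primary cells. It is also the amount by which the secondary minus primary difference changed from June to October. Of 20326 listed genes, 13049 reached 1 in at least 3 of the 24 libraries and were tested, and the members described here are the 7405 tested genes (56.7%) whose interaction had the same sign in females and in males. Females and males were weighted equally. The other 5644 tested genes (43.3%) had opposite signs in the sexes.

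The 24 libraries form 8 groups of 3. Secondary follicle cells, labelled SHFDPCs, were taken from female and from male goats in June, labelled earlyAna for early anagen, and from both sexes in October, labelled Ana for anagen. Primary follicle cells, labelled PHFDPCs, were taken in the same months from the same combinations. The labels name no treatment, age or passage for any group. Month, growth stage and day of collection cannot be told apart, because June and early anagen always go together. The labels number the libraries of a group as biological replicates and do not say whether these are separate animals, so the p-values measure the spread between these libraries, which may be technical.

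The dermal papilla is a cluster of mesenchymal cells under the follicle's epithelial bulb that sends growth signals, among them FGF, IGF, BMP and Wnt ligands and their inhibitors, to the cells above it. Secondary follicles of cashmere goats make the fine undercoat fibre, which grows seasonally from summer into winter, and primary follicles make the coarse guard hair. An interaction of follicle type and month asks whether papilla cells of the fine-fibre follicles pass through the season differently from those of the guard-hair follicles.

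Library totals of the deposited values lay between 959766 and 1045876, and sequencing depth is not stated in the sources used here. Log values of libraries from the same group had a Pearson r of at least 0.993 across genes, against 0.954 to 0.992 for libraries of different groups. Summed values of 28 papilla markers were 917 to 1388 per library. VCAN and RSPO3 were well expressed in all groups, whereas the papilla markers CORIN, RSPO4 and HHIP did not exceed 0.34, 0.08 and 0.03 in any library. Per library, 17 immune markers summed to 14.3 to 44.1, 11 endothelial markers to 43.1 to 78.7 and 11 melanocyte markers to 11.6 to 18.7. Within these lists PTPRC, CDH5 and TYR did not exceed 0.02, 0.03 and 0.11, whereas CD68 reached 24.8, ERG 45.8 and MITF 11.8. Among smooth muscle and sheath markers, ACTA2, smooth muscle actin, lay between 4316 and 7969 and MYH11, smooth muscle myosin, between 4.17 and 8.44. Mitochondrial genes made up 8.72% to 12.7% of a library's total, and the highest share was in secondary October females.

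The interaction was called for 6023 of the 13049 tested genes (46.2%) at an adjusted p under 0.05 by limma with Benjamini-Hochberg adjustment. Of these, 3041 were positive (23.3%) and 2982 negative (22.9%). Among genes with the same sign in both sexes, 2427 were called positive (18.6%) and 2478 negative (19%). Taken alone, females gave 5252 calls (40.2%) and males 5730 (43.9%). A stricter set was called in the mean and in each sex, with 963 positive (7.38%) and 993 negative genes (7.61%), and these 1956 (15%) are the members described most closely. With at least a 2-fold interaction in each sex, 55 positive (0.421%) and 164 negative genes (1.26%) were left. Genes called in each sex with opposite signs were 968 (7.42%), and 63 of them were 2-fold or more in each sex (0.483%).

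The split between positive and negative calls depends on the scaling of the libraries. With each library rescaled to a total of 1e+06 the median interaction of all genes moved by -0.076, and the split became 2090 positive and 4267 negative. The calls also rest on how closely the 3 libraries within each group resemble one another. When the 8 group means were taken as single samples, so that the sexes served as the replicates, limma called 0 genes, and 1181 of the tested genes (9.05%) had an unadjusted p under 0.05. The smallest adjusted p among the genes named here was then 0.0906, for SFRP1.

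**Figure D1:**
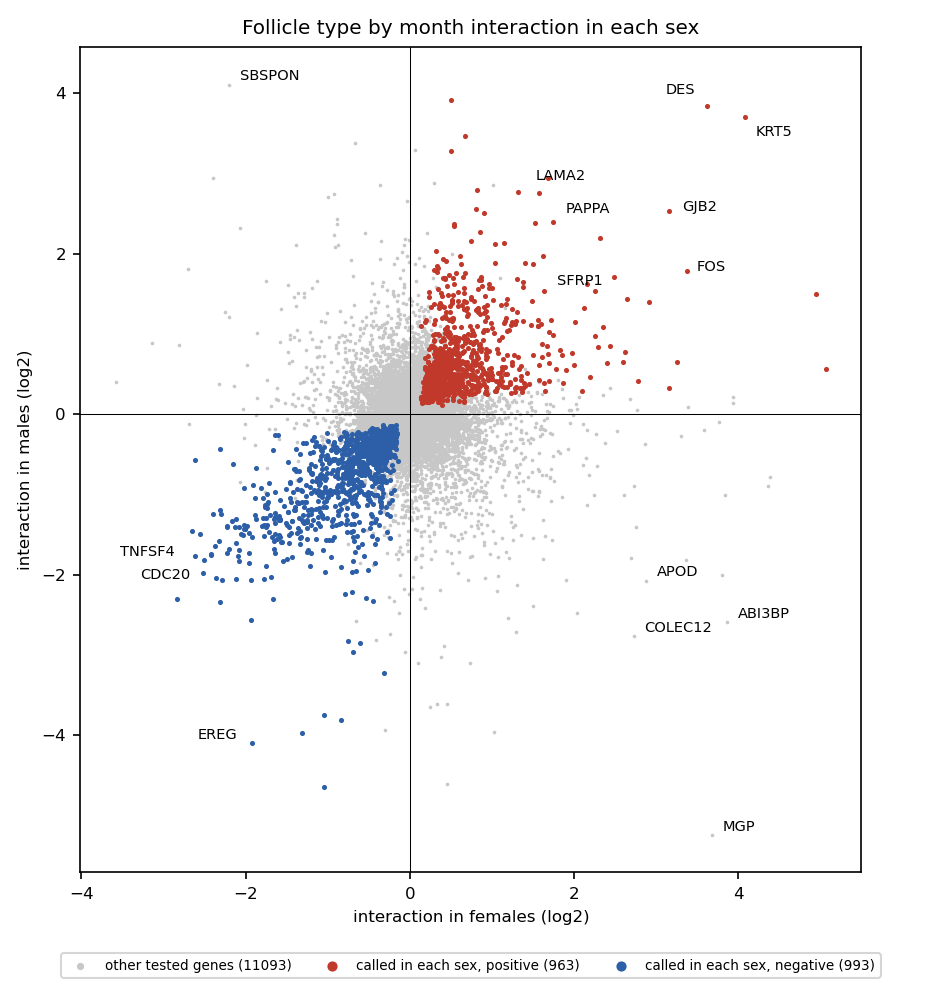
Interaction of follicle type and month (log2) in females on the horizontal axis and in males on the vertical axis, 1 point per tested gene. The 963 genes called positive in each sex (red) lie in the upper right, the 993 called negative in each sex (blue) in the lower left, and genes with opposite signs, such as SBSPON and MGP, lie in the upper left and lower right.

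In the mean of the sexes, most members differed between the follicle types in June and less in October. The absolute secondary minus primary difference had a median of 0.458 in June and 0.129 in October among the 963 positive members, and of 0.582 and 0.0935 among the 993 negative ones. Over all tested genes it was 0.18 and 0.0911. It was smaller in October in 83.8% of positive members, in 92.8% of negative members and in 70% of all tested genes. Differences of opposite sign in the sexes cancel in this mean. Within females the median absolute difference was 0.362 in June and 0.206 in October for positive members and 0.496 and 0.16 for negative ones, and within males it was 0.51 and 0.116, and 0.667 and 0.135. Over all tested genes it was 0.188 and 0.14 in females and 0.238 and 0.102 in males. It was smaller in October in 58.4% of all tested genes in females and in 74.6% in males. Follicle type differences were called for 8079 genes in June (61.9%) and 4116 in October (31.5%), and month differences for 8206 in secondary (62.9%) and 7942 in primary cells (60.9%). These parts share libraries with the interaction and describe its members without testing them again.

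By the mean of the sexes, 455 of the 963 positive members (47.2%) were lower in secondary cells in June and not called between the types in October. A further 287 (29.8%) were lower in secondary cells in June and higher in October, 149 were lower in both months, 56 became higher in October only and 16 were higher in both. By month, 354 (36.8%) rose in secondary and fell in primary cells, 171 rose in secondary cells with primary cells not called, and 190 fell in primary cells with secondary cells not called. The other positive members moved one way in both types, 99 up and 149 down. Among the 993 negative members, 657 (66.2%) were higher in secondary cells in June and not called in October, 163 (16.4%) were higher in June and lower in October, 144 were higher in both months, 25 became lower in October only and 4 were lower in both. Of the 455 and 657 genes not called in October in the mean of the sexes, 152 and 234 were called in October in females, males or both, 39 and 65 of them in both with opposite signs. By month, 468 (47.1%) fell in secondary and rose in primary cells, 197 fell in secondary cells only, 139 rose in primary cells only, 136 fell in both and 53 rose in both.

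**Figure D2:**
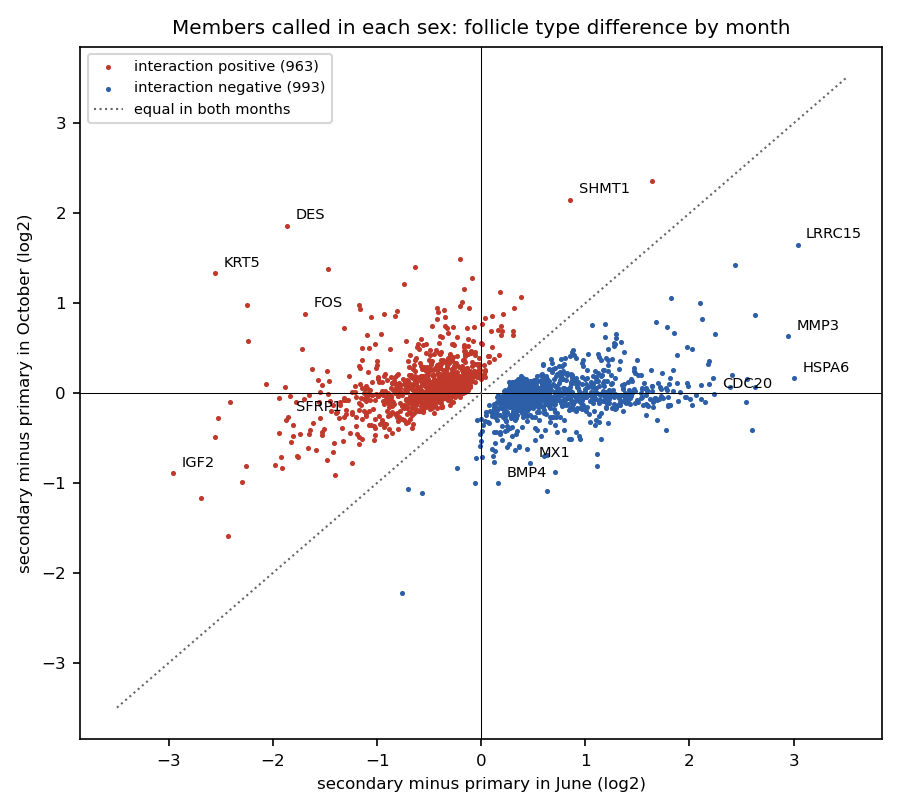
Secondary minus primary difference (log2, mean of the sexes) in June on the horizontal axis and in October on the vertical axis for the 1956 genes called in each sex, with positive interactions in red and negative ones in blue. Most points lie close to the horizontal zero line, where the mean difference is smaller in October than in June, and KRT5, DES, FOS and MX1 lie where the sign differs between the months.

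Counts within gene lists below are of genes called by limma in the mean of the sexes with the same sign in both, to be read against 18.6% positive and 19% negative of all tested genes. List genes called with opposite signs were called in the mean while their sign differed between the sexes, as were 1118 of all 13049 tested genes. Genes whose opposite interactions cancel in the mean are not counted there. Genes of cell division were negative throughout. All 32 tested genes of a mitosis and G2/M list were called negative, all 32 in each sex, and their median interaction was -1.74 (-2.02 in females and -1.42 in males), against a median of 0.001 over all tested genes. In the list's medians, secondary cells changed by -1.14 from June to October and primary cells by 0.64. The median secondary minus primary difference was 1.68 in June and -0.052 in October. The October value averages opposite differences of the sexes. The list's mean log value per library in October was 3.33 to 3.42 in secondary and 3.71 to 3.80 in primary females, and 3.67 to 3.70 in secondary and 3.36 to 3.38 in primary males. Of 29 tested genes for DNA replication and the G1/S transition, 29 were called negative with one sign, 26 of them in each sex, with a median of -1.17. In bulk RNA, a change in the share of dividing cells and a change of these transcripts per cell cannot be told apart.

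CDC20, an activator of the anaphase-promoting complex, shows the shape of this group. In secondary cells its values were 49.6, 50.5 and 51.1 in June females, 48.1, 52.5 and 55.3 in June males, 16.6, 18.2 and 17.4 in October females and 27.7, 25.6 and 26.7 in October males. In primary cells they were 11.6, 11.3 and 13.5 in June females, 8.45, 8.35 and 8.34 in June males, 27.9, 24 and 26.1 in October females and 18.8, 17.6 and 18.3 in October males. In June each secondary library lay above each primary library. In October the types overlapped only across the sexes: secondary cells were lower than primary cells in females, by a difference of -0.55, and higher in males, by 0.52. CDC20 fell by 1.21 in secondary cells and rose by 1.04 in primary cells, an interaction of -2.25 ± 0.064 (SE, 3 libraries in each of 8 groups, limma adjusted p = 1.34e-17).

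MKI67, the proliferation antigen Ki-67, had 16.9 to 18.6 in secondary and 3.19 to 5.6 in primary cells in June, and 5.11 to 8.7 and 6.1 to 9.32 in October. Its interaction was -1.94 ± 0.06, with -2.21 in females and -1.68 in males. The kinase NEK2, which acts at the centrosome, had 19.8 to 23.9 in June and 6.14 to 9.64 in October in secondary cells, and 2.91 to 6.07 in June and 6.35 to 9.37 in October in primary cells. For both genes the types did not overlap in June. Further genes of this kind among the 12 most negative members, given with their interactions, were UBE2C, a ubiquitin-conjugating enzyme of mitotic exit, at -2.09, HJURP, a centromere histone chaperone, at -2.16, PRC1, which bundles the central spindle, at -2.08, ASPM, a spindle pole protein, at -1.95, and CDCA8 and AURKB, partners in the chromosomal passenger complex, at -1.93 and -1.91. Cyclin B1, CCNB1, had an interaction of -1.89 ± 0.059.

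The replication genes named here changed in both types. UHRF1, which helps to copy DNA methylation to new strands, rose by 0.84 in primary cells and fell by 0.85 in secondary cells. LMNB1, a nuclear lamin, rose by 0.98 in primary cells and fell by 0.41 in secondary cells. Its values in primary cells were 8.21 to 15.4 in June and 20.2 to 27.1 in October, and in secondary cells 26.8 to 34.9 and 21.9 to 25. RRM2 and TYMS, enzymes of nucleotide supply, had interactions of -1.56 and -1.19. Cell cycle inhibitors and p53 targets gave 9 positive and 3 negative calls among 17 tested genes. CDKN1A, the p21 inhibitor, had an interaction of 0.42 ± 0.046. In the mean of the sexes it fell by 0.36 in secondary and 0.78 in primary cells. The secondary value averages opposite changes, 0.115 in females and -0.84 in males, both called.

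**Figure D3:**
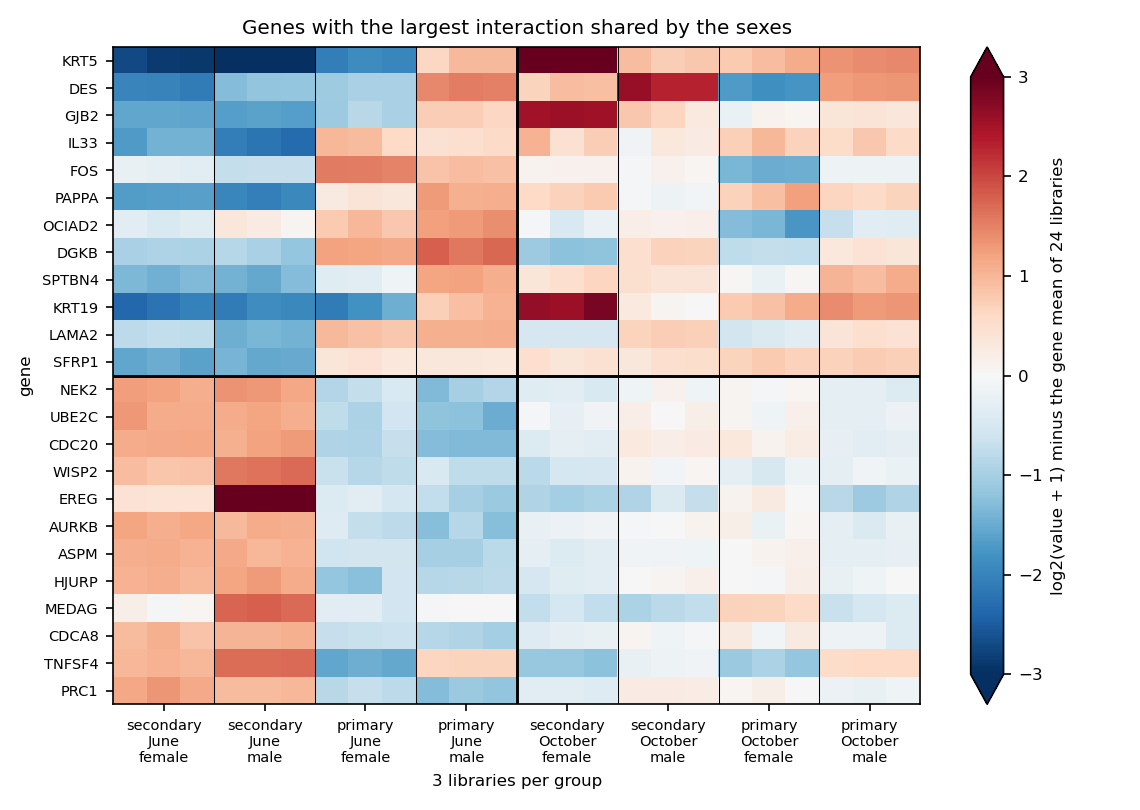
Heat map of the 12 most positive genes (upper block) and 12 most negative genes (lower block) in all 24 libraries, grouped by month, follicle type and sex. Colour is log2(value + 1) minus the gene's mean over the 24 libraries and saturates at 3 in either direction. Most genes of the lower block are highest in the 6 secondary June libraries, with EREG and MEDAG high mainly in the males of that group, and most October columns of the block are paler.

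Other strongly negative members code for secreted or surface proteins. WISP2, a matricellular protein of the CCN family, was 23.4, 21.9 and 22.2 in secondary June females and 37.3, 39.1 and 40.6 in secondary June males. The other groups were lower, at 6.39 to 12.9 in secondary October, 6.19 to 8.34 in primary June and 8.29 to 11 in primary October libraries. Its interaction was -1.997 ± 0.093 (adjusted p = 4.81e-14), with -1.93 in females and -2.06 in males. TNFSF4, the OX40 ligand, fell by 2.01 in secondary cells and had an interaction of -2.19 ± 0.053. MEDAG, named for its part in fat cell formation, had an interaction of -1.92 ± 0.082.

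EREG, the EGF receptor ligand epiregulin, was far higher in one group than in any other. Secondary June males had 35.6, 27.1 and 27.5, secondary June females 2.83 to 2.93, and the remaining 6 groups 0.35 to 2.51. The interaction was -1.93 in females and -4.10 in males, both called. The heat shock protein HSPA6 was likewise concentrated in secondary June males, at 52.2, 56.7 and 55.2, against 2.81 to 3.5 in secondary June females and 0.36 to 2.94 elsewhere. MMP3, the matrix protease stromelysin-1, stood at 22.9, 19.7 and 21.2 in secondary June males and 4.5, 3.98 and 4.62 in secondary June females, and no other library exceeded 3.27. Of 21 heat shock chaperones tested, 8 were called negative and 3 positive, with a median of -0.18.

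Interferon response genes were negative where they were called with one sign in the sexes. Of 25 tested, 11 were called negative and 0 positive with one sign, 4 were called with opposite signs in the sexes and 10 were not called, and the median was -0.29. MX1, an antiviral GTPase, had 79.1, 75.8 and 77.9 in secondary June females, 122, 123 and 125 in secondary June males, 35, 35.1 and 32.3 in secondary October females and 45.4, 39.9 and 41.1 in secondary October males. Primary cells had 68.7, 71.2 and 74.1 in June females, 69.4, 72.8 and 66.1 in June males, 73.8, 73.1 and 79.6 in October females and 57.3, 56.1 and 58.1 in October males. The secondary libraries were all above the primary ones in June and all below them in October, and the interaction of -1.25 ± 0.051 was -1.24 in females and -1.25 in males. IFI44 had an interaction of -1.46 ± 0.15 at values of at most 6.42, and RSAD2, the antiviral enzyme viperin, had an interaction of -0.89 ± 0.083.

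Sterol genes were called in both directions, with most calls negative. Of 26 tested genes of cholesterol synthesis and its control, 15 were called negative and 3 positive, with a median of -0.30. INSIG1, a regulator of sterol synthesis, had an interaction of -0.50 in females and -1.94 in males. LSS, lanosterol synthase, rose by 0.35 in secondary and by 1.03 in primary cells, an interaction of -0.67 ± 0.076. The cholesterol exporter ABCA1 was positive at 0.81 ± 0.081. SCD, the desaturase that makes monounsaturated fatty acids, had an interaction of -0.65 ± 0.067.

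Extracellular matrix genes were called in both directions, with most calls positive. Of 23 tested collagens, 13 were called positive and 1 negative, 11 and 1 of them in each sex, with a median interaction of 0.50. Glycoproteins, proteoglycans and crosslinking enzymes of the matrix gave 18 positive and 2 negative calls among 38, a median of 0.35, and 14 genes called with opposite signs in the sexes. COL3A1, a fibrillar collagen of skin, had 2134, 2129 and 2223 in secondary June females, 1844, 1878 and 1902 in secondary June males, 4785, 4860.3 and 4768 in secondary October females and 5234, 5308 and 5420.1 in secondary October males. Primary cells had 4122, 4078 and 4047 in June females, 4968, 5000.2 and 4797 in June males, 4336, 4706 and 4344 in October females and 6904, 6876 and 6952 in October males. All secondary libraries were below all primary ones in June, and in October they were above them in females and below them in males. COL3A1 rose by 1.33 in secondary and 0.31 in primary cells, an interaction of 1.02 ± 0.033 (adjusted p = 1.2e-16) that was 1.02 in females and 1.01 in males.

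Other matrix genes were called in each sex. COL5A2, which joins fibrillar collagen, had an interaction of 1.002 in females and 1.08 in males, and COL12A1, a collagen on fibril surfaces, had interactions of 1.18 and 1.19. SPARC, a collagen-binding glycoprotein, had an interaction of 1.18 and 1.03. It rose by 0.64 in secondary and fell by 0.47 in primary cells. LAMA2, a laminin chain of basement membranes, was 1.91 to 3.86 in secondary and 13.2 to 16.1 in primary cells in June, without overlap, and 4.64 to 12.5 and 4.51 to 10.5 in October. Its interaction was 2.17 ± 0.057, and fibronectin, FN1, had an interaction of 0.97 ± 0.049. Matrix proteases and their inhibitors were mixed, with 10 positive and 3 negative calls among 27.

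**Figure D4:**
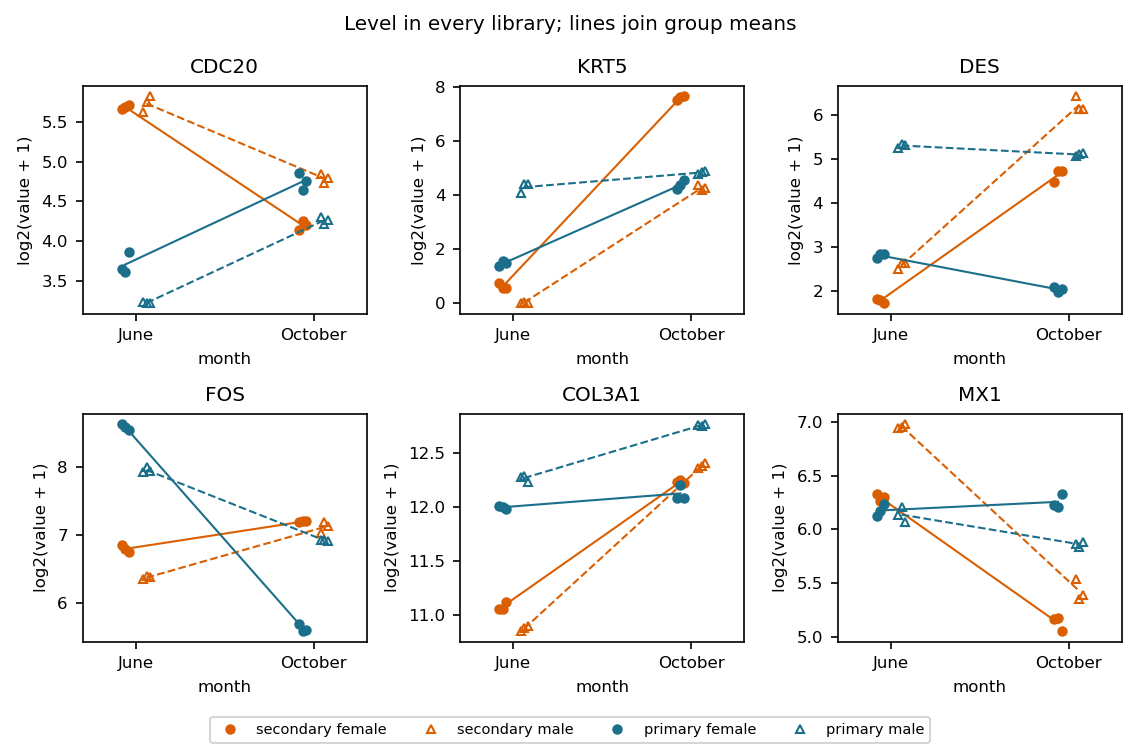
Values of 6 members as log2(value + 1) in every library, June on the left and October on the right of each panel, with secondary cells in orange, primary cells in blue, females as filled circles with solid lines and males as open triangles with dashed lines. Lines join the means of 3 libraries. The lines of the follicle types cross for DES, FOS and MX1 in both sexes. CDC20 in October is lower in secondary than in primary females and higher in secondary than in primary males, and KRT5 in October is highest in secondary females.

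The insulin-like growth factor axis had only positive same-sign calls. Of 17 tested genes, 11 were called positive, all 11 in each sex, 0 negative and 4 with opposite signs, with a median of 0.50. PAPPA, a protease that frees IGF from its binding proteins, had 4, 4.08 and 4.1 in secondary June females, 3.08, 2.81 and 3.18 in secondary June males, 23.1, 24.6 and 26.4 in secondary October females and 14.2, 13.3 and 13.9 in secondary October males. Primary cells had 18.3, 19.9 and 19.1 in June females, 37.3, 32.5 and 32.9 in June males, 24.5, 28.8 and 36 in October females and 23.7, 22.6 and 24.4 in October males. The types were apart in June. In October they overlapped in females, and secondary males lay below primary males. PAPPA rose by 2.11 in secondary cells and was not called in primary cells in the mean of the sexes (0.04). That mean averages opposite changes in primary cells, 0.60 in females and -0.52 in males, both called. The interaction was 2.07 ± 0.089 (limma adjusted p = 1.14e-14).

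Among the ligands, IGF2 was 0.44 to 0.82 in secondary June libraries and reached 10.2 to 12.5 in secondary October males, against 1.48 to 2.05 in secondary October females. Its interaction was 0.68 in females and 3.46 in males. In the mean of the sexes IGF1 rose by 1.07 in secondary and 0.56 in primary cells, with an interaction of 0.51 ± 0.095. Only males rose, by 2.35 in secondary and 1.91 in primary cells. In females the change of IGF1 was not called in secondary cells (-0.22) and was -0.80 in primary cells. Of the binding proteins, IGFBP7 had an interaction of 1.27 ± 0.044 and IGFBP3 had an interaction of 1.58 ± 0.064. In the mean of the sexes IGFBP3 rose by 0.91 in secondary and fell by 0.67 in primary cells. Its change in secondary cells was 1.69 in females and was not called in males (0.125).

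Wnt regulators with one sign in the sexes were called positive only. Of 20 tested Wnt inhibitors, potentiators and targets, 9 were called positive and 0 negative with one sign, and the median was 0.30. SFRP1, which binds Wnt ligands outside the cell, had 8.05, 8.45 and 7.72 in secondary June females, 9.13, 8.15 and 8.3 in secondary June males, 36.6, 33.1 and 35.5 in secondary October females and 32.5, 36.7 and 37 in secondary October males. Primary cells had 33, 34.5 and 31.9 in June females, 32.5, 32.4 and 31.9 in June males, 40.8, 44.9 and 42 in October females and 42, 44 and 42.2 in October males. Secondary libraries were below primary ones in both months, with a log2 difference of -1.86 in June and -0.27 in October. SFRP1 rose by 1.96 in secondary and 0.37 in primary cells, and its interaction of 1.59 ± 0.057 (adjusted p = 6.54e-16) was 1.64 in females and 1.54 in males. DKK3, a Dickkopf family protein, had an interaction of 1.04 ± 0.045. Among 22 tested Wnt ligands and receptors, 8 were positive and 1, the receptor FZD5 at -1.38, was negative.

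BMP and TGF-beta genes were called in both directions, 14 positive and 6 negative among 31, with a median of 0.36. INHBA, the activin A subunit, was 62.8 to 106 in secondary and 172 to 346 in primary cells in June, without overlap, and 278 to 319 and 257 to 274 in October, again without overlap and with secondary cells the higher. It rose by 1.80 in secondary cells and had an interaction of 0.91 in females and 2.50 in males. LTBP1, which stores latent TGF-beta in the matrix, had an interaction of 1.25 ± 0.035. ID4, a BMP-responsive inhibitor of basic helix-loop-helix factors, fell by 0.77 in secondary and 2.58 in primary cells, an interaction of 1.81 ± 0.065. The receptor TGFBR2 was negative, at -0.81 in females and -0.74 in males.

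Immediate early genes, which are transcribed within minutes of a stimulus, gave 14 positive and 0 negative same-sign calls among 26 tested, and 9 calls with opposite signs. The list's median was 0.88 for females and 0.11 for males. FOS, a subunit of the AP-1 factor, had 114, 109.6 and 106 in secondary June females, 80.6, 82.8 and 81.9 in secondary June males, 145, 146 and 146 in secondary October females and 129.9, 145 and 139 in secondary October males. Primary cells had 397, 387 and 374 in June females, 242, 256 and 246 in June males, 50.7, 46.9 and 47.6 in October females and 121, 121 and 119.5 in October males. Each secondary library lay below each primary one in June and above each primary one in October. FOS rose by 0.57 in secondary and fell by 2.004 in primary cells, an interaction of 2.58 ± 0.042 (adjusted p = 1.03e-21) that was 3.37 in females and 1.78 in males. Primary June females were highest for FOSB too, at 180.1 to 188 against at most 47.1 elsewhere, and FOSB had an interaction of 4.95 in females and 1.50 in males. EGR1, a zinc finger factor of the same response, had an interaction of 1.37 ± 0.045. The time from sampling to RNA extraction is not given in the sources used here, and its part in these values was not tested.

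DES codes for desmin, an intermediate filament protein of muscle. It had 2.55, 2.5 and 2.29 in secondary June females, 4.66, 5.18 and 5.24 in secondary June males, 21.1, 25.4 and 25.3 in secondary October females and 84.4, 68.8 and 69 in secondary October males. Primary cells had 5.71, 6.13 and 6.17 in June females, 37, 39.3 and 39 in June males, 3.29, 2.91 and 3.12 in October females and 32.4, 33.4 and 33.9 in October males. Within each sex the secondary libraries were lower than the primary ones in June and higher in October. The interaction was 3.62 in females and 3.84 in males, 3.73 ± 0.075 in the mean (adjusted p = 2.33e-20). Sheath and smooth muscle markers as a list gave 5 positive and 0 negative same-sign calls among 16, 6 with opposite signs, and the list's median was -0.19 for females and 0.73 for males. Their summed values were 22150 to 25438 in secondary June, 28702 to 38642 in primary June, 24796 to 34997 in secondary October and 30769 to 33748 in primary October libraries. The part of sheath cells in the result for DES was not tested.

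KRT5 had the largest positive interaction of all tested genes. KRT5, a keratin of basal epidermal cells, had 0.68, 0.5 and 0.47 in secondary June females, 0, 0.05 and 0.02 in secondary June males, 186, 201 and 203 in secondary October females and 19.9, 17.3 and 18.3 in secondary October males. Primary cells had 1.61, 1.94 and 1.8 in June females, 15.9, 20.3 and 20.6 in June males, 17.9, 19.7 and 22.5 in October females and 26.7, 28.2 and 28.9 in October males. Secondary libraries were below primary ones in June, and in October they were above them in females and below them in males. On the log2(value + 1) scale the interaction was 4.08 in females and 3.70 in males, 3.89 ± 0.088 in the mean (adjusted p = 2.4e-19). KRT14, the partner of KRT5, had an interaction of 2.04 ± 0.095, KRT19 had an interaction of 1.90 ± 0.13 and KRT6A had an interaction of 1.90 ± 0.11. GJB2, the gap junction protein connexin 26, reached 16.9 to 17.5 in secondary October females and was at most 4.47 in all other libraries, with an interaction of 2.85 ± 0.10. Keratins have close paralogs, and how the authors' software divided reads among them is not given in the sources used here.

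Epithelial markers were counted as a list that includes KRT5, KRT14, KRT19 and KRT6A, so its calls and sums partly repeat those results. Means of these keratins in secondary October females were 197, 77.5, 41.5 and 28.2. Of 22 tested keratinocyte and hair matrix markers, 15 were called positive and 0 negative with one sign, 8 of them in each sex. Another 4 were called with opposite signs and 3 were not called. The list's median was 1.42 for females and 0.26 for males, and its interactions ran from -0.719 to 3.893. The 28 listed markers summed to 446 to 491 in secondary October females, 112 to 122 in secondary October males, 129 to 140 and 175 to 189 in primary October females and males, 77.8 to 84.4 in secondary June libraries, 73.6 to 74.7 in primary June females and 154 to 166 in primary June males. EPCAM, an epithelial surface protein, had a mean of 4.69 in secondary October females and at most 0.83 in the other groups, and TP63, the basal epithelial factor, did not exceed 0.79 in any library. The part of epithelial cells in these results was not tested.

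IL33, an alarmin cytokine, and DGKB, a diacylglycerol kinase, were further positive members. IL33 was 0.4 to 1.59 in secondary June libraries and 5.41 to 13.3 in all others, with an interaction of 2.32 in females and 2.20 in males. DGKB had an interaction of 2.31 ± 0.078 and fell by 1.62 in primary cells. Its mean change of 0.69 in secondary cells averages opposite changes, -0.23 in females and 1.62 in males, both called. The remaining genes of the 12 most positive were OCIAD2, at 2.10, and SPTBN4, a spectrin, at 1.80.

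Papilla marker genes divided by direction. Of 22 tested, 12 were called positive and 5 negative with one sign, 9 and 3 of them in each sex, 3 were called with opposite signs and 2 were not called. The growth factor FGF7, which acts on epithelial cells, was 15.3 to 22.2 in secondary and 55.6 to 95.6 in primary cells in June, without overlap. In October it was 35.1 to 39.5 in secondary and 108 to 138 in primary females, again apart, and 78.4 to 101 and 84.1 to 92.1 in males, where the types overlapped. The interaction was 0.35 in females and 1.82 in males. FGF10, its relative, had an interaction of 0.77 ± 0.084. VCAN, the proteoglycan versican, had an interaction of 0.75 ± 0.052. It was 290.3 to 541 in secondary and 206 to 233 in primary October libraries, without overlap. In June the types overlapped in males, and secondary females lay above primary females. RSPO3, a potentiator of Wnt signalling, fell by 0.29 in secondary and 0.66 in primary cells in the mean of the sexes. Its change in secondary cells was -0.59 in females and was not called in males (0.007). The interaction of RSPO3 was 0.37 ± 0.04. The transcription factors PRDM1, TBX18, TRPS1 and MSX2 had interactions of 1.01, 0.52, 0.63 and 0.54.

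On the negative side, BMP4, a BMP ligand of the papilla, had 97.7, 103 and 105 in secondary June females, 77.5, 86.1 and 86.7 in secondary June males, 47.8, 56.1 and 56.3 in secondary October females and 64, 57.3 and 64.1 in secondary October males. Primary cells had 84.8, 88.2 and 93.4 in June females, 77.8, 72.5 and 78.8 in June males, 138, 109 and 142 in October females and 101, 99.6 and 109.7 in October males. In June the types overlapped in males, and secondary females lay above primary females. In October each secondary library lay below each primary one. BMP4 fell by 0.68 in secondary and rose by 0.48 in primary cells, an interaction of -1.16 ± 0.082 (adjusted p = 6.16e-11). LRRC15, a leucine-rich repeat membrane protein, was higher in secondary cells in both months, by 3.04 in June and 1.65 in October. It rose by 1.72 in primary cells, and its interaction was -0.45 in females and -2.33 in males.

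SOX2, a transcription factor that marks papilla cells of some hair types, had a male interaction that was called and a female one that was not. It was 0.07 to 0.42 in secondary June libraries, 0 to 0.7 in secondary October females and 13.7, 15.1 and 13.9 in secondary October males, and 10.6 to 17.9 in primary libraries. The interaction was 0.066 in females (adjusted p = 0.82) and 3.29 in males (adjusted p = 6.5e-12). LEF1, a Wnt-responsive factor, was not called in the mean of the sexes, with -0.15 ± 0.081, but was called in females at -0.57 (adjusted p = 0.000343), against 0.27 in males. SDC1, syndecan-1, was likewise not called in the mean, at 0.082, and was called in males at 0.19 (adjusted p = 0.017), against -0.031 in females. ALPL, the alkaline phosphatase used to stain papillae, had an interaction of 2.11 in females and -0.12 in males, where it was not called. ALPL values were low, at most 2.44 in any library. Its mean was 2.03 in primary June females and at most 0.73 in every other group.

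**Figure D5:**
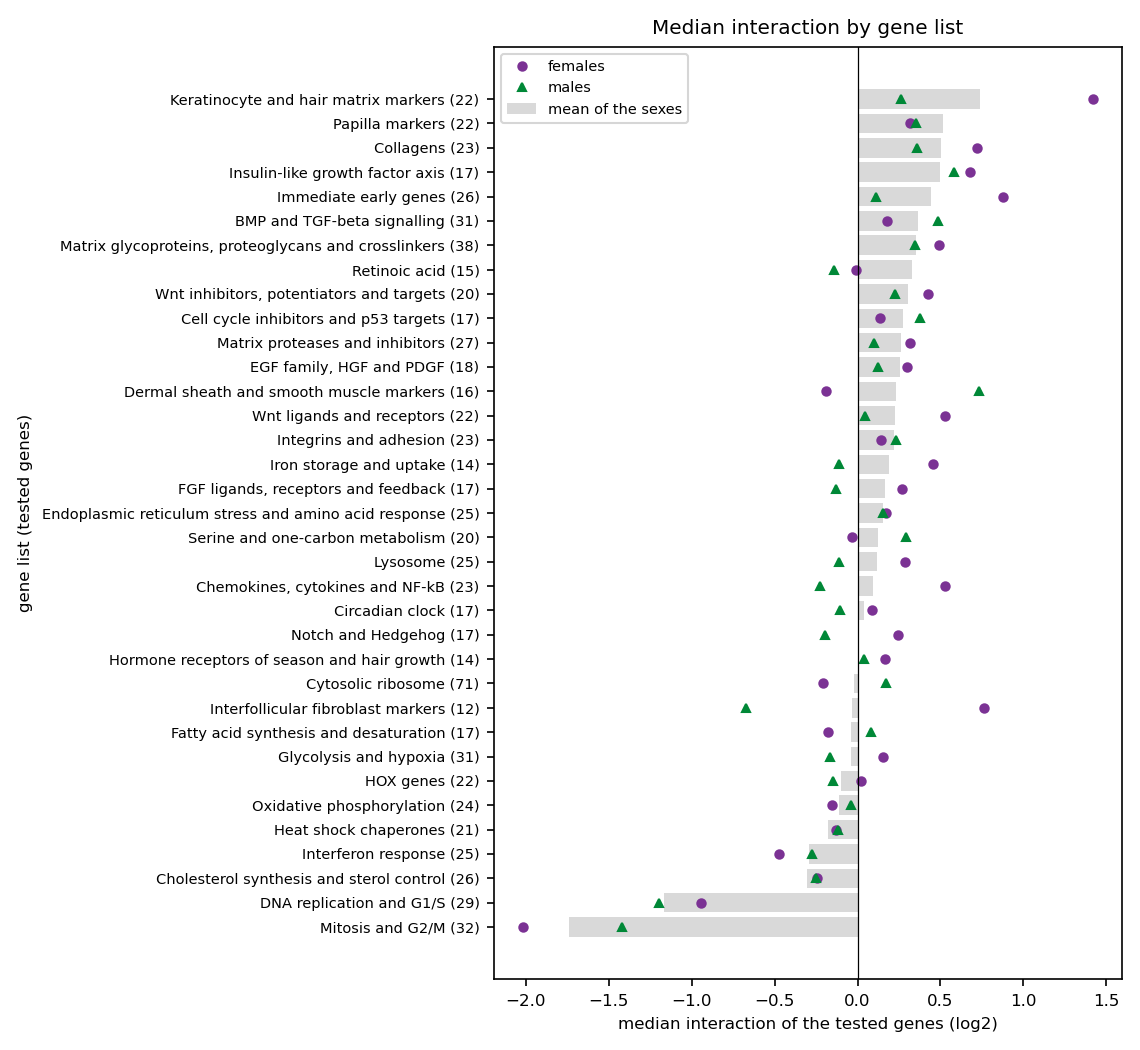
Median interaction (log2) of the tested genes of each gene list with at least 10 of them, with bars for the mean of the sexes, circles for females and triangles for males, and the number of tested genes in brackets. Mitosis and DNA replication genes lie lowest in both sexes, and markers of interfollicular fibroblasts and of sheath cells lie on different sides of 0 in females and males.

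Some tested genes outside the members had large interactions of opposite sign in the sexes. The 5 genes with the largest opposite interactions (log2) were MGP, at 3.68 in females and -5.24 in males, COLEC12, at 2.73 and -2.76, ABI3BP, at 3.87 and -2.59, SBSPON, at -2.20 and 4.11, and APOD, at 2.88 and -2.07. MGP and ABI3BP code for matrix proteins and APOD for a lipid carrier. APOD was 119 to 137 in primary June females and 268 to 276 in primary October males, and 25.8 to 26.7 in primary June males and 67.5 to 82.6 in primary October females. Of 12 tested interfollicular fibroblast markers, to which APOD belongs, 5 were called in the mean with opposite signs, against 1118 of all 13049 tested genes. Another 1 was called with one sign and 6 were not called, and the list's medians were 0.76 in females and -0.67 in males. Summed values of the listed markers were 2592 to 2611 in primary June males and 3070 to 5066 in the other groups. The interaction differed between the sexes for 4607 tested genes (35.3%), among them 569 of the 1956 members called in each sex, which differed in size and not in sign.

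In the mean of the sexes few ribosomal protein genes were called, and respiratory chain genes were called negative only. Of 71 tested cytosolic ribosomal protein genes, 59 were not called, 4 were negative, 1 was positive and 7 were called with opposite signs. The list's median was -0.02 in the mean of the sexes, -0.209 in females and 0.169 in males, so the mean hides shifts of opposite sign. Of 24 tested genes of oxidative phosphorylation, 18 were not called, 6 were negative and 0 positive, against 19% negative and 18.6% positive of all tested genes. The interactions of these 24 genes ran from -0.27 to 0.12. At the threshold of the mean contrast, POC5 (-0.163, adjusted p = 0.0497) and RPUSD4 (-0.218, adjusted p = 0.0499) were the last called by limma, and MCFD2 (0.150, adjusted p = 0.0504) and ZNF786 (-0.273, adjusted p = 0.0504) the first not called.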

How the data were processed

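RNA of dermal papilla cells was sequenced in 24 libraries, 3 in each of 8 groups of follicle type, month and sex. Extraction with RNAiso Plus and paired-end library construction with an NEB kit are given per the labels' protocols. The submitters' processing notes name kallisto 0.46.1 and sleuth 0.30.0, with no role. The authors deposited 1 normalised expression signal per gene and library. Not given in the sources used here were the genome build, transcript set, normalisation and depth. No counting interval can therefore be given, and the libraries of a group supply the only measure of error. The RefSeq table of assembly ARS1.2 served for names, and 20294 of 20326 gene IDs were found in it.

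Genes reaching 1 in at least 3 libraries were analysed as log2(value + 1) in R 4.3.3 with limma 3.58.1 and statmod 1.5.0, using 8 group means, a variance trend and robust estimation. The sexes were weighted equally, and p-values were Benjamini-Hochberg adjusted over all tested genes, with calls at an adjusted p under 0.05. Fold changes on this scale understate those of low genes. The script was tested on simulated data. Named genes are the 12 most positive and 12 most negative, ranked by the smaller of the absolute interactions in the sexes, among genes called in each sex with a group mean of at least 5; up to 4 called genes by p of each of 41 lists with at least 3 calls; all papilla markers; and 5 genes called with opposite signs. Some genes that this rule names are not reported here. The members and lists were chosen with earlier results of these data known. Alternatives were a pseudocount of 0.1, no filter, a filter of 1 in 6 libraries, no robust estimation, median-of-ratios factors, totals of 1e+06, a fold of at least 2, the replicate number as a block, each library left out, and group means.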

Additional observations from a re-analysis of the deposited data

Results flagged for a closer look

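The interaction of follicle type and month differed between the sexes for 4607 tested genes by limma's test of that difference at an adjusted p under 0.05. Those among them for which an interaction is reported are given with the female minus male difference of the interaction on the log2 scale in brackets. Each rests on 3 libraries in each of 8 groups.

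Positive interactions were larger in females for FOSB (3.44), FOS (1.59), BHLHE40 (1.48), PRDM1 (1.25), EGR1 (1.22) and KRT14 (1.21). Smaller differences in the same direction were found for NFIL3 (1.11), ABCA1 (0.95), IGFBP3 (0.87), OCIAD2 (0.79), KRT6A (0.72) and GJB2 (0.62). Next in size were VCAN (0.51), CDKN1A (0.49), EGFR (0.45) and MSX2 (0.45). They were larger in males for SOX2 (-3.23), IGF2 (-2.79), ID4 (-1.99), INHBA (-1.60), FGF7 (-1.48) and DGKB (-1.26). Smaller differences in the same direction were found for LTBP1 (-1.25), LAMA2 (-1.18), FN1 (-1.02), FTH1 (-0.83), SHMT1 (-0.67) and PAPPA (-0.65). Next in size were IGFBP7 (-0.60) and TBX18 (-0.44).

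Negative interactions were larger in size in females for FZD5 (-1.54), TNFSF4 (-0.85), HJURP (-0.68), PRC1 (-0.67), BMP4 (-0.60) and CDC20 (-0.55). Smaller differences in the same direction were found for MKI67 (-0.53), CCNB1 (-0.39) and RRM2 (-0.37). Males had the larger negative interaction for HSPA6 (3.61), MMP3 (2.97), EREG (2.17), LRRC15 (1.87), INSIG1 (1.44) and SCD (0.65). Smaller differences in the same direction were found for ERG (0.48) and NR1D1 (0.45). Opposite signs in the sexes were seen for MGP (8.92), ABI3BP (6.45), SBSPON (-6.31), COLEC12 (5.49), APOD (4.95), ALPL (2.22) and LEF1 (-0.84).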

How the results depend on the processing

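All 14 counts of called genes stayed within 1.5 times their value under a pseudocount of 0.1, no filter, a filter of 1 in 6 libraries, no robust estimation, median-of-ratios factors and each library left out in turn. Without 1 library, the positive interaction count ran from 2887 to 3366 and the negative one from 2788 to 3235. Rescaling each library to 1e+06 lowered the positive same-sign calls to 1568 and those called in each sex to 620, with 3487 and 1410 negative. With a fold of at least 2 as well, the interaction calls were 190 positive and 287 negative, 174 and 272 with one sign, 55 and 164 called in each sex, and 63 with opposite signs. The same fold left 727 in females, 869 in males, 1145 for the sex difference, 485 and 343 month changes in secondary and primary cells, and 560 and 97 type differences in June and October. Fewer genes pass because the criterion is stricter. On the 8 group means, limma called 0 positive and 0 negative genes, with 3 residual degrees of freedom, and 1181 genes had an unadjusted p under 0.05.

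The replicate block gave 3140 positive and 3055 negative calls and changed no count by over 1.5 times. Deviations of same-numbered libraries from their group means had correlations of -0.281 to 0.348 over 84 pairs. The median was 0.0335, against -0.0167 for libraries of different number, and 25 of the 84 pairs exceeded 0.1. Of 24 libraries, 11 correlated best with their own number. The numbers were not treated as pairing in the main fit. COLEC12 ran from -0.04 to 0.017 with 1 library left out and changed sign to 0.017, 0.004, 0 and 0.001 without primary June male 1, secondary October female 3, secondary October male 2 and primary October male 2, and SDC1 to -0.004 on rescaling; neither was called in the mean of the sexes. LEF1 became called by limma on rescaling, at -0.23, and without primary October male 1, at -0.20 (adjusted p = 0.0383). Rescaling also turned the medians of the clock, hormone receptor, Notch and pericyte lists, for which no direction is given. Causes were not tested. Depth is unknown, and 3 libraries per group limit what small differences can be seen.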

Other observations

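Other gene groups also held members. Of 23 tested integrins and adhesion genes, 10 were called positive and 5 negative by limma with one sign in the sexes. ITGA1, a collagen receptor subunit, had an interaction of 1.15 in females and 1.14 in males, and ITGA6, a laminin receptor subunit, had an interaction of -1.24 and -1.69. Iron genes gave 5 positive and 2 negative calls among 14. FTH1, the ferritin heavy chain, fell by 1.06 in primary cells and had an interaction of 1.003 ± 0.051. SLC40A1, the iron exporter ferroportin, fell by 0.49 in secondary and 1.34 in primary cells. Of 22 tested HOX genes, 5 were called negative and 2 positive, and HOXC11 had an interaction of -1.08 in females and -0.97 in males. Genes of serine and one-carbon metabolism gave 6 positive and 5 negative calls among 20. SHMT1, which moves one-carbon units from serine, had a mean secondary minus primary difference of 0.86 in June and 2.15 in October. The June value averages opposite differences of the sexes, 2.125 in females and -0.41 in males. In October secondary cells were higher in both sexes, by 3.09 in females and 1.22 in males.

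Receptors of the EGF and HGF families moved in different directions. EGFR rose by 0.83 in secondary cells and had an interaction of 0.96 ± 0.068, and MET, the HGF receptor, fell by 1.11 in secondary cells and had an interaction of -1.03 ± 0.071. Of 17 tested clock genes, 4 were called positive and 4 negative with one sign, 2 with opposite signs. NFIL3, a repressor of D-box transcription, had an interaction of 1.85 in females and 0.74 in males, and BHLHE40, a repressor of E-box transcription, had an interaction of 1.87 and 0.39. Both were positive in each sex. NR1D1, a nuclear receptor that represses clock genes, had a negative interaction of -0.38 ± 0.074.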
